A study of Sus scrofa with 40 samples.

Results

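The genes described here supply deoxynucleotides, the building blocks of DNA, and were followed in pig (Sus scrofa) oocytes across mitochondrial DNA (mtDNA) state and library type. They were chosen as a list of 10 symbols: RRM1, RRM2, RRM2B, TK1, TK2, DGUOK, DCK, TYMS, SAMHD1 and DUT. Of these, 7 had a row under their own symbol among the 38794 named rows of each count table. RRM1 and SAMHD1 were matched through their NCBI gene IDs to the rows LOC102166900 and LOC100154500, which a match by symbol alone would have left out. TK1 had no row and was skipped, so 9 genes are described. The genes were selected on their place in this pathway and with their levels and earlier results in these libraries in view, so their levels and the differences between library types are given as a description, with no p. The differences between mtDNA states are tested across all genes. The contrast of states in pools may have served in choosing the members. Its p-values for the members are therefore a description and not an independent test.

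The libraries came from metaphase II oocytes, the mature stage that waits for fertilisation, of pigs bred as a commercial hybrid from the Large White, Duroc and Berkshire breeds. The labels class each library by mtDNA state as deficient or normal, and the study set out to compare these states. Titles of deficient libraries carry the word neg (BCBneg in single oocytes) and those of normal libraries pos (BCBpos). The labels do not say what BCB stands for, and no mtDNA measurement of each library was used here. Pools of oocytes made up 11 libraries, 5 deficient and 6 normal, extracted with the Arcturus Picopure kit and prepared with the Nugen Ovation RNA-seq system V2 and the Ovation Ultralow system V2. Single oocytes made up 29 libraries, 14 labelled deficient and 15 normal, extracted in the tube and prepared with the Nugen SoLo kit and an InDA-C primer mix for the pig. The number of oocytes in a pool and the age of the animals are not given in the labels. Pools are named below by the letter and number of their title, such as A2, and nothing in the labels says what the letter stands for. The counts of single oocytes were also added up within each state for each number that opens a title, giving 4 deficient sums (numbers 1 to 4) and 3 normal sums (numbers 2 to 4), because oocytes that share a number may share a source. Deficient sums 1 to 4 hold 2, 2, 3 and 7 libraries, and normal sums 2 to 4 hold 4, 4 and 7. Numbers 1 and 3 hold only oocytes whose column is dated 17 September and number 2 only those of 22 September, while number 4 holds both, so date and number are not separate. In 3 pairs of libraries the title gives the same number and oocyte number within a state and date, so these may be 1 oocyte each. Their counts differed beyond sampling noise (chi-square per degree of freedom 4.09, 7.32 and 13.1), but the deficient pair, at 4.09, was closer than the other 90 deficient pairs, which began at 5.28. Within the sums each such pair is added together, and in values by oocyte it counts as 2. Nothing in the labels ties pools or sums to different animals, and p-values therefore measure only how these samples vary, which may be technical variation.

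A cell makes deoxynucleotides along 2 routes. Ribonucleotide reductase converts ribonucleotides in the cytosol, with a large subunit, RRM1, that pairs with either of the small subunits: RRM2, which is abundant in S phase and degraded afterwards, or RRM2B, the form that serves cells outside S phase. Salvage kinases instead phosphorylate deoxynucleosides, TK2 and DGUOK inside mitochondria and DCK outside them. TYMS makes thymidylate from deoxyuridylate, DUT breaks down dUTP, and SAMHD1 breaks down deoxynucleotides. In humans, loss of RRM2B, TK2 or DGUOK is known to cause mtDNA depletion, since mitochondria of non-dividing cells depend on these enzymes.

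Levels are in CPM, counts per 1000000 counts in the named rows of a library. A pool held 14480546 to 29538982 counts and a single oocyte 706929 to 3067523. A gene with 0 counts could therefore have had up to 3 counts, which is 0.102 to 0.207 CPM in a pool and 0.978 to 4.24 CPM in a single oocyte, counting error only. In single oocytes the row LOC102158401 took 61.5% of the counts on average (46.7% to 76.0%), against at most 0.0275% in a pool. Fixed oocyte markers, 10 of 10, had means over 10 CPM in each group of libraries. Of 15 cumulus and granulosa markers with a row, 5 had means over 1 CPM in pools and 2 had means over 10 CPM. In pools INHA, AMHR2, LHCGR and FOXL2 were at 0. All 15 summed to 67.4 to 199 CPM in the deficient pools against 116 to 175 CPM in the normal ones. In single oocytes 7 had means over 1 CPM and 1 over 10 CPM, with AMHR2 and TNFAIP6 at 0. There the 15 summed to 20.1 to 64.4 CPM in the deficient state and 10.8 to 45.5 CPM in the normal state. Of 6 theca and stroma markers, 2 had means over 1 CPM in pools, with LUM and CYP17A1 at 0. All 6 summed to 3.53 to 8.01 CPM in the deficient pools against 6.62 to 12.3 CPM in the normal ones. In single oocytes, where 1 of them had a mean over 10 CPM and COL1A1 and LUM were at 0, these summed to 9.76 to 55.7 CPM in the deficient and 1.96 to 43.5 CPM in the normal state. The part of these other cells in the values below was not tested. Levels are not divided by transcript length, which is not given for this annotation, so no gene is ranked against another.

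RRM2B, the small subunit used outside S phase, was read at 1126 to 1810 CPM in every pool. Its level in the deficient pools was 1595 CPM in A1, 1771 in A2, 1593 in A3, 1410 in B2 and 1352 in B4. In the normal pools the lowest value was 1126 CPM (A2), the median 1425 and the highest 1810 (A4). The ranges overlapped, and the highest and the lowest pool were both normal in CPM, whereas with the TMM scaling of the test the highest was deficient A2. The means were 1544 ± 167 CPM (SD, n = 5) in deficient and 1431 ± 287 CPM (SD, n = 6) in normal pools. Fewer cells of a type and less RNA per cell cannot be told apart in such pooled samples. On the log2 scale, deficient pools exceeded normal ones by 0.24 (SE 0.24, 95% interval -0.27 to 0.76, edgeR quasi-likelihood test, Benjamini-Hochberg adjusted p = 0.922). In this comparison 0% of the 13540 genes tested were called at an adjusted p of 0.05, and 726 had an unadjusted p below 0.05. DESeq2 called 28 genes there, none of them a member.

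RRM1, the large subunit that both small subunits need, stood at 67.6, 35.8, 61.6, 77.6 and 99.8 CPM in deficient pools A1, A2, A3, B2 and B4. In normal pools it ran from 32.3 CPM (A3) through a median of 79.7 to 98.3 (B4). The lowest values of both states, in deficient A2 and normal A3, came from the libraries with the fewest detected genes, 14207 and 15057, where the other pools had 16169 to 19245. The 5 pools titled B ran from 77.6 to 99.8 CPM and the 6 titled A from 32.3 to 78.0 CPM, while the states did not separate. The share of all genes that differ as much between the letters was not counted, so this is not read as a trait of RRM1. The log2 difference between the states was -0.01 (SE 0.23, 95% interval -0.50 to 0.47, edgeR adjusted p = 0.995).

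RRM2, the small subunit of S phase, was read at 31.2 CPM in deficient pool A1, 32.5 in A2, 12.1 in A3, 21.8 in B2 and 22.9 in B4. The normal pools ran from 19.7 CPM (B2) through a median of 25.9 to 31.4 (A3). Of the 6 pools titled A, 5 lay above all 5 titled B, and deficient A3 was the lowest of all. For this split, too, the share over all genes was not counted. The log2 difference between the states was 0.03 (SE 0.31, 95% interval -0.64 to 0.70, edgeR adjusted p = 0.994).

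**Figure D1:**
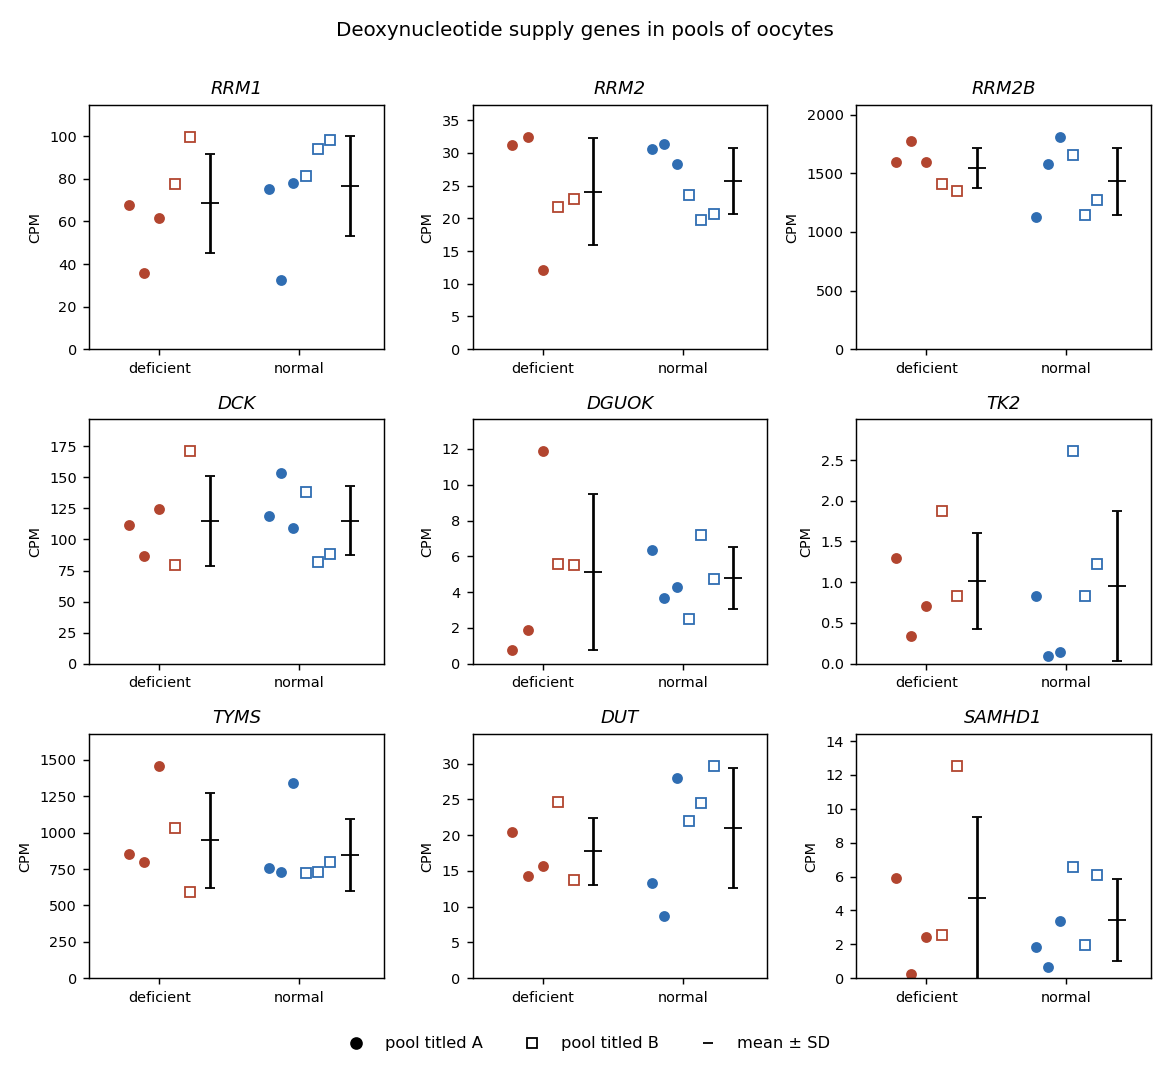
Levels (CPM) of 9 deoxynucleotide supply genes in 5 deficient and 6 normal pools of oocytes (filled circles, pools titled A; open squares, pools titled B; black bars, mean ± SD; each panel has its own vertical axis from 0). The states overlap in every panel, with RRM2B between 1126 and 1810 CPM.

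The balance of the small subunits was read as RRM2B counts per RRM2 count within a library, which needs no scaling between libraries but is not per length. It was 51.1, 54.6, 132, 64.8 and 59.0 in deficient pools A1, A2, A3, B2 and B4, and 36.9 to 69.9 (median 60.0) in the normal pools. Only A3, the pool with the lowest RRM2, lay outside the range of the normal pools. The 4 deficient sums of single oocytes gave 14.6, 24.2, 9.97 and 14.8, and the 3 normal sums 15.3, 18.4 and 16.4. The value of 24.2, in deficient sum 2, rests on 9 RRM2 counts. All 7 sums lay below all 11 pools in this ratio. How often other pairs of genes separate in this way was not counted, and RRM2B was chosen with its levels known. RRM2B counts per RRM1 count were 13.5 to 49.4 in deficient pools, with the highest in A2, and 12.2 to 48.8 in normal pools, with the highest in A3. In the sums they were 16.1, 6.41, 6.25 and 6.75 in the deficient state and 5.94, 8.92 and 7.01 in the normal state. Deficient sum 1, with 20 RRM1 counts, was thus the one sum that reached into the range of the pools.

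**Figure D2:**
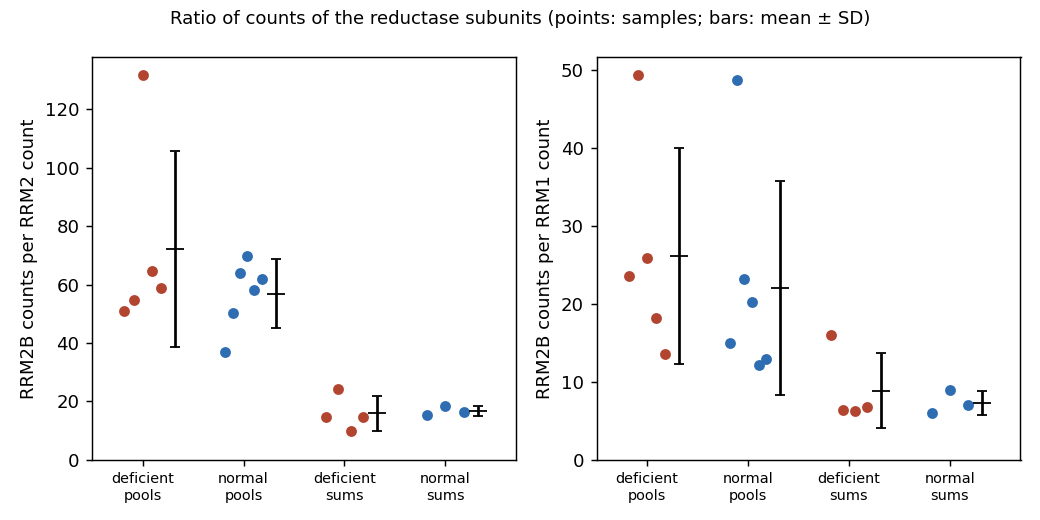
RRM2B counts per RRM2 count (left) and per RRM1 count (right) in pools and single-oocyte sums of each state (points, samples; bars, mean ± SD; linear axes from 0). The 7 sums lie between 9.97 and 24.2 RRM2B counts per RRM2 count, below the lowest pool at 36.9.

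Of the salvage kinases, DCK, which phosphorylates deoxycytidine and the purine deoxynucleosides outside mitochondria, was well counted in pools. It stood at 112, 86.5, 124, 79.9 and 171 CPM in deficient pools A1, A2, A3, B2 and B4, and at 81.5 to 154 CPM (median 114) in normal pools. The lowest and the highest pool were both deficient in CPM and both normal with TMM scaling, and the log2 difference was 0.07 (SE 0.28, 95% interval -0.52 to 0.67, edgeR adjusted p = 0.980). DGUOK, the mitochondrial deoxyguanosine kinase, was at 0.791 CPM in A1, 1.86 in A2, 11.9 in A3, 5.59 in B2 and 5.54 in B4 of the deficient pools. In normal pools it ran from 2.51 to 7.20 CPM (median 4.51), so the deficient pools held both the lowest and the highest values. Its log2 difference was 0.27 (SE 0.55, 95% interval -0.90 to 1.45, edgeR adjusted p = 0.962).

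TK2, the mitochondrial thymidine kinase, was counted 5 to 48 times in a deficient pool and 2 to 77 times in a normal pool. That is 0.345 to 1.88 CPM and 0.0917 to 2.61 CPM, with the lowest normal value, in A3, under the floor of 3 counts. Its log2 difference was 0.18 with an SE of 0.81, so its interval of -1.54 to 1.90 spans large changes either way (edgeR adjusted p = 0.984).

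TYMS, the thymidylate synthase, was read at 850 CPM in deficient pool A1, 800 in A2, 1459 in A3, 1031 in B2 and 592 in B4. The normal pools ran from 720 CPM (B1) through a median of 745 to 1343 (A4), and the second highest stood at 796. One pool of each state, deficient A3 and normal A4, therefore rose well over the rest, and the lowest pool was deficient. The log2 difference was 0.32 (SE 0.26, 95% interval -0.24 to 0.88, edgeR adjusted p = 0.921). DUT, the dUTP-degrading enzyme that also yields the substrate of TYMS, was at 20.4, 14.2, 15.8, 24.7 and 13.8 CPM in deficient A1, A2, A3, B2 and B4 while normal pools ran from 8.66 to 29.7 CPM (median 23.2). The deficient values fell within the range of the normal ones (log2 difference -0.07, SE 0.29, 95% interval -0.68 to 0.53, edgeR adjusted p = 0.981). SAMHD1, the deoxynucleotide triphosphohydrolase, ran from 0.276 CPM (A2) to 12.5 (B4) in deficient and from 0.688 (A3) to 6.57 (B1) in normal pools. Its log2 difference was 0.56 (SE 0.70, 95% interval -0.93 to 2.05, edgeR adjusted p = 0.934). Of the 9 members, 7 had a positive difference in pools and 0 were called, with a median of 0.18 against -0.00 over all genes tested.

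In single oocytes every member but RRM2B, TYMS, DCK, RRM1 and DUT was at 0 in some libraries. RRM2B was detected in each of the 29 oocytes, with 52 to 333 counts. It ran from 53.8 CPM through a median of 92.1 to 155 in the 14 deficient oocytes, and from 46.2 through 59.5 to 113 in the 15 normal ones. The ranges overlapped, although 12 of 14 deficient oocytes lay above the normal median. Oocytes are not replicates of a state, and the share of all genes with such an excess was not counted. The means were 96.0 ± 32.3 (SD, n = 14) and 71.3 ± 22.98 CPM (SD, n = 15). Column headers carry a date, and in the oocytes dated 17 September the means were 99.6 ± 38.1 (n = 8) and 69.8 ± 23.1 CPM (n = 9), and in those of 22 September 91.3 ± 25.1 (n = 6) and 73.7 ± 24.7 CPM (n = 6). The row LOC102158401 took 58.5% of the counts on average in deficient and 64.2% in normal oocytes. With that row and the 18S ribosomal RNA gene RN18S left out of the totals, RRM2B stood at 254 ± 70.1 and 223 ± 91.9 CPM, and the highest oocyte, at 497 CPM, was a normal one. Over the sums, RRM2B was at 112, 87.9, 62.8 and 105 CPM in deficient numbers 1 to 4 and at 68.1, 73.8 and 75.5 CPM in normal numbers 2 to 4. Deficient number 3 lay below all normal sums and the other deficient sums above them. The log2 difference over the sums was 0.12 (SE 0.22, 95% interval -0.36 to 0.59, edgeR adjusted p = 1.00).

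The other members of the single oocytes spread widely within each state. TYMS ran from 27.9 to 109 CPM (median 68.5) in deficient and from 26.9 to 120 CPM (median 64.1) in normal oocytes, and its log2 difference over the sums was -0.29 (SE 0.27, edgeR adjusted p = 1.00), of opposite sign to that in pools. DCK had the medians 20.97 and 22.5 CPM and differed by -0.43 on the log2 scale (SE 0.30, edgeR adjusted p = 1.00). RRM1 was counted 1 to 31 times in a deficient oocyte and 1 to 40 times in a normal one, with a log2 difference of 0.01 (SE 0.38). RRM2 was counted 0 to 24 and 0 to 17 times and was at 0 in 2 oocytes of each state (log2 difference 0.28, SE 0.48). None of these intervals excluded 0.

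DUT was the member with the largest difference over the sums. Its 4 deficient sums stood at 26.1, 8.46, 9.36 and 11.6 CPM and its 3 normal sums at 11.04, 4.26 and 8.24 CPM, so number 1 of the deficient state, which has no normal counterpart, stood apart. That sum holds 2 oocytes, and 56 of its 75 DUT counts came from 1 of them, at 37.1 CPM. The log2 difference was 0.64 (SE 0.44, 95% interval -0.29 to 1.56, edgeR adjusted p = 1.00) and 0.20 without that sum. Oocytes of 17 September gave 14.2 ± 10.03 CPM (n = 8) in the deficient and 6.16 ± 4.64 CPM (n = 9) in the normal state, while those of 22 September gave 11.3 ± 4.15 (n = 6) and 11.3 ± 5.54 CPM (n = 6). Thus the higher mean of the deficient oocytes was seen under the first date and not under the second.

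The mitochondrial kinases and SAMHD1 were near the floor in single oocytes. DGUOK was at 0 in 9 of 14 deficient and 9 of 15 normal oocytes, TK2 in 5 and 7, and SAMHD1 in 7 of each state. A count of 0 allowed up to 1.94 to 3.62 CPM for DGUOK in the deficient and 0.978 to 2.75 CPM in the normal oocytes concerned. These 3 genes did not pass the filter on low counts in the sums, so 6 members were tested between the states there. Of the 6, 4 had a positive and 2 a negative difference, and 0 were called, with a median of 0.07 against -0.00 over all genes. In that comparison 0% of the 11964 genes tested were called and 231 had an unadjusted p below 0.05. DESeq2 called 2 genes, and the fit with the title number as a replicate block also called 2, with no member among either.

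**Figure D3:**
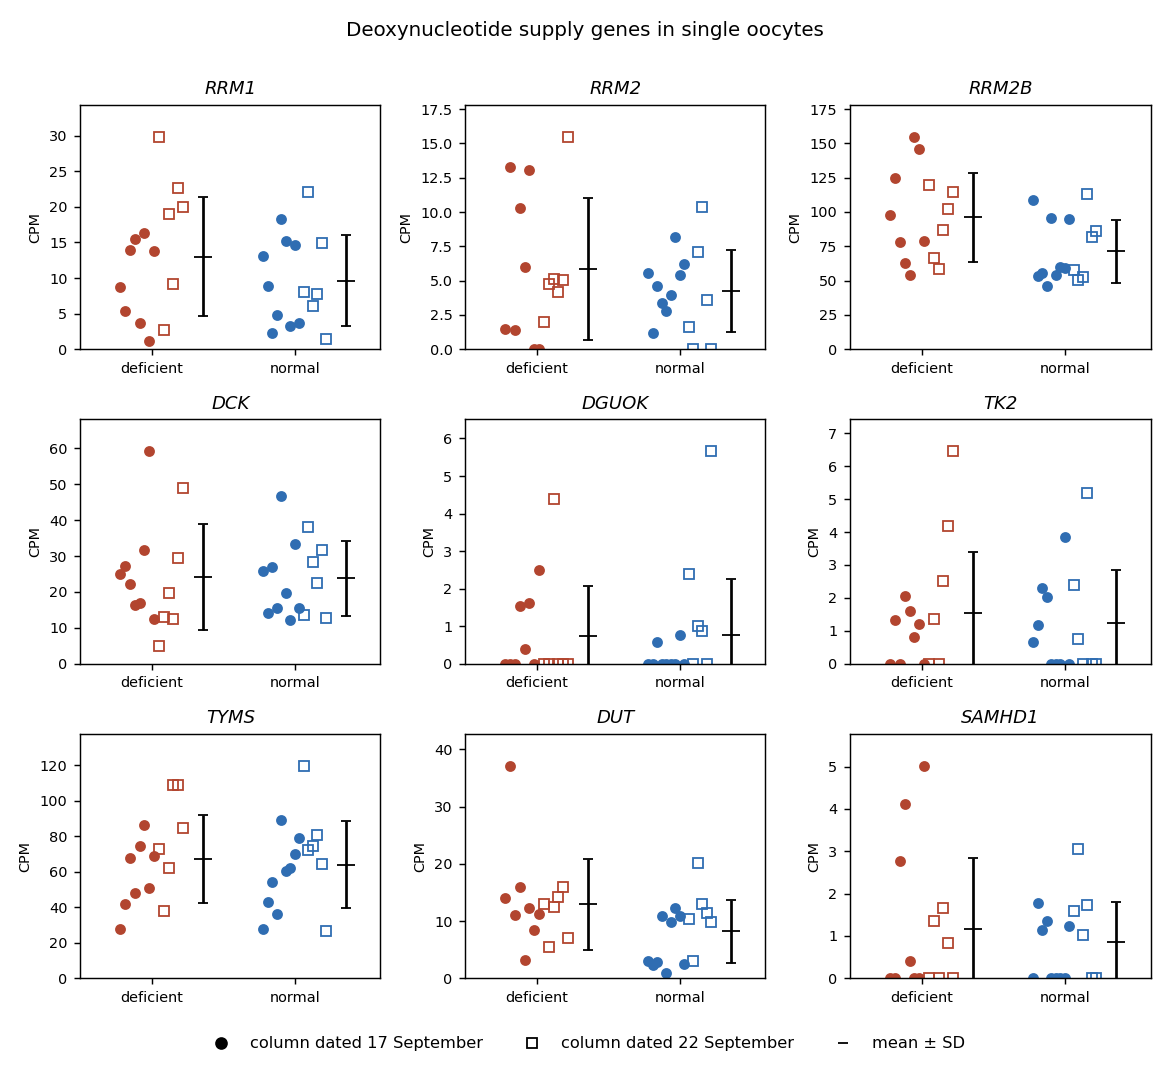
Levels (CPM) of the same 9 genes in 14 deficient and 15 normal single oocytes (filled circles, columns dated 17 September; open squares, 22 September; black bars, mean ± SD; each panel has its own vertical axis from 0). RRM2B was detected in each oocyte, at 46.2 to 155 CPM, whereas DGUOK lies at 0 in 18 of 29 oocytes.

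**Figure D4:**
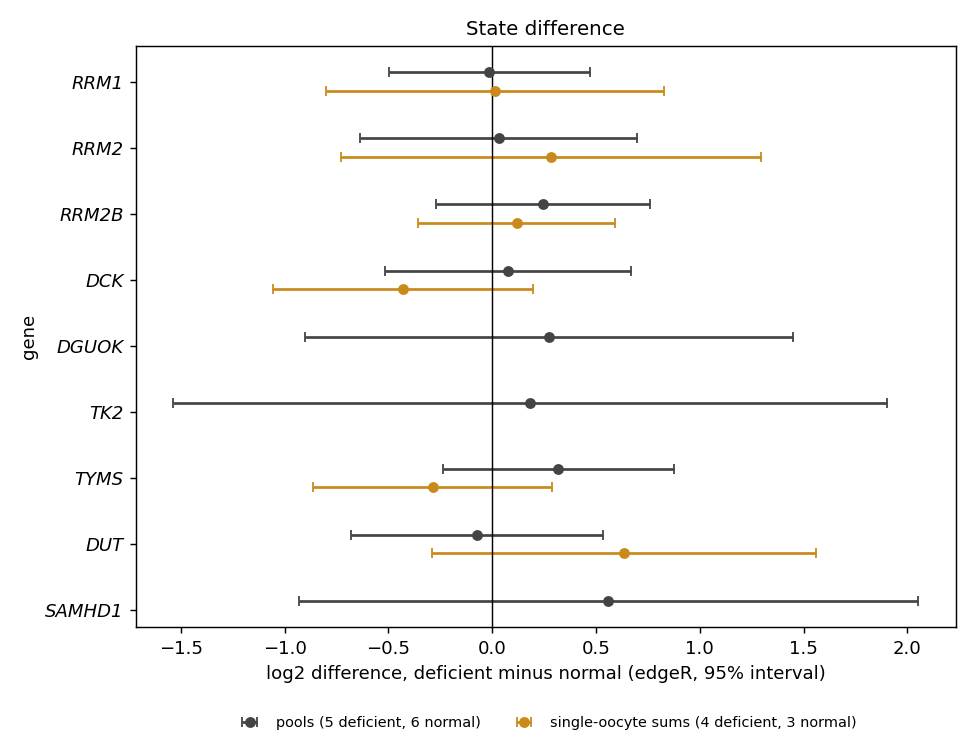
Log2 difference between deficient and normal samples with its 95% interval (edgeR) for each gene, in pools (grey, 5 against 6) and single-oocyte sums (orange, 4 against 3). Each interval crosses 0, and TK2, DGUOK and SAMHD1 have no value in the sums because they did not pass the filter on low counts.

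The state difference was next compared between pools and sums, in 1 fit of all 18 samples. Its difference for RRM2B was 0.16 (SE 0.35, 95% interval -0.57 to 0.88, edgeR adjusted p = 0.999) and for TYMS 0.61 (SE 0.42, 95% interval -0.26 to 1.48, edgeR adjusted p = 0.923). None of the 9 members was called, where 0% of 17643 genes were, with 939 at an unadjusted p below 0.05. DESeq2 called 1 gene, not a member.

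Library type went with far larger differences than the state. Pools and single oocytes differ in extraction, library kit, number of oocytes, depth and count table at once, so these cannot be told apart. The values of this comparison are a description, with no p, since the genes were chosen with levels in both library types known. Calls between library types, here and in the further lists, are likewise a description and not a test of the chosen genes. RRM2B was higher in pools by a log2 difference of 3.65 in the normal state (SE 0.31, edgeR) and 3.81 in the deficient state (SE 0.28). Its lowest pool stood at 1126 CPM and its highest oocyte at 155 CPM, or at 1135 and 497 CPM with LOC102158401 and RN18S left out of the totals. TYMS was higher in pools by 3.10 (SE 0.36) and 3.71 (SE 0.34). Its lowest pool stood at 592 CPM and its highest oocyte at 120 CPM, or at 593 and 373 CPM without those rows. Pools and oocytes of both genes stayed apart either way, by a smaller margin without the abundant rows. The share of all genes whose pools and oocytes stay apart was not counted.

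RRM1 was higher in pools by 2.21 in the normal and 2.20 in the deficient state (SE 0.33 and 0.30). For RRM2 the log2 differences were 1.93 and 1.69 (SE 0.42 and 0.38), and for DCK 1.65 and 2.16 (SE 0.35 and 0.33). All subunits of the reductase were thus higher in pools, and RRM2B had the largest value of them, although the difference between members was not tested. DUT had 0.76 (SE 0.40) in the normal and 0.09 (SE 0.37) in the deficient state, and the latter was -0.42 under RLE scaling. Of the 6 members that passed the filter on low counts in each table alone, 5 were past the threshold as higher in pools in each state and 0 as lower. Over all 17643 genes of the joint fit, 25.3% were called higher and 26.1% lower in pools in the normal state, and 27.6% and 29.6% in the deficient state. These shares include genes that passed the filter in 1 table only, so they are not like for like with the 6 members. The share over genes that passed in both tables was not counted. The same limit holds for the further lists below.

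DGUOK, SAMHD1 and TK2 missed that filter in the sums and entered the joint fit through the pools, so no call is given for them. DGUOK had 25 counts in all 29 oocytes together and 2 of its 4 deficient sums at 0, and its fitted log2 differences were 2.48 (SE 0.95) and 2.88 (SE 0.88). SAMHD1 had 1.09 (SE 1.00) and 1.74 (SE 0.95), and TK2 was the one member with negative values, -1.21 (SE 0.92) and -0.78 (SE 0.90). Over all genes the median log2 difference was -0.11 in the normal and -0.17 in the deficient state. No median of the members is set beside these, since DGUOK, SAMHD1 and TK2 entered through the pools. Under RLE scaling the median of all genes moved to -0.59 and -0.65, and the calls to 3430 higher and 5798 lower in the normal and 3957 and 6329 in the deficient state, from 4460 and 4609 and from 4866 and 5228. RRM2B was still higher by 3.19 and 3.32 there.

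**Figure D5:**
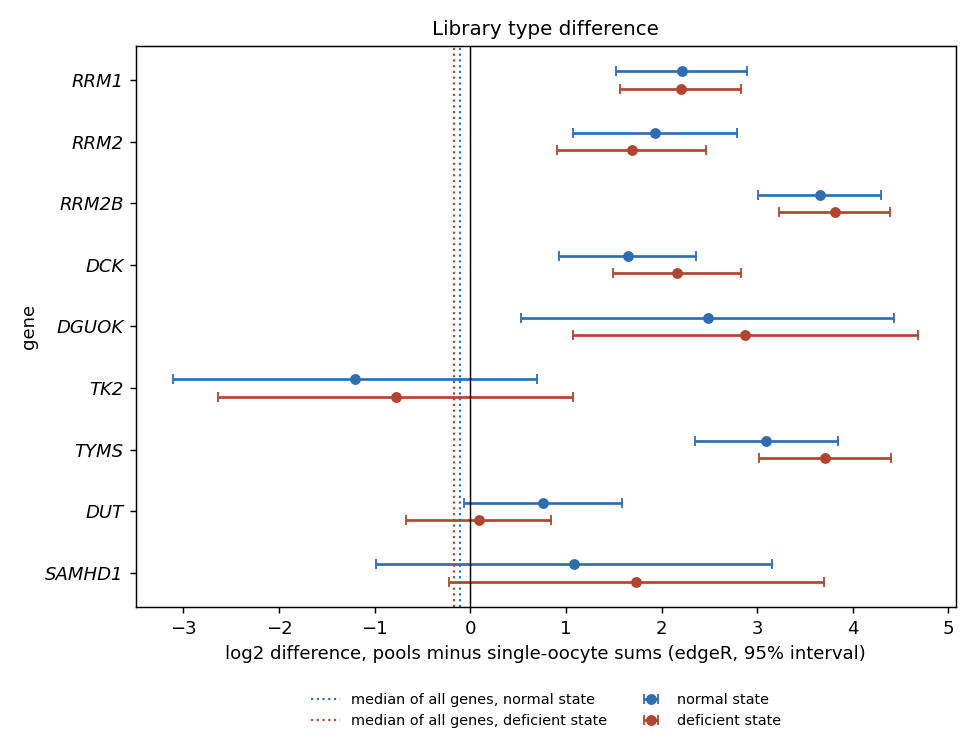
Log2 difference between pools and single-oocyte sums with its 95% interval (edgeR) for each gene, in the normal state (blue) and the deficient state (red); dotted lines mark the median of all genes, -0.11 and -0.17. RRM2B and TYMS lie furthest to the right in each state, while the intervals of DUT, SAMHD1 and TK2 cross 0 in each state.

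The spread of each member over pools went beyond counting error. Within states, the chi-square per degree of freedom of the counts was 1015 for RRM2B and 2157 for TYMS, where 1 is expected from counting alone, and 16.1 for TK2, which had the lowest. The coefficient of variation of RRM2B was 15.96% over pools in CPM, against 31.01% for RRM1 and 30.8% for TYMS. With TMM scaling the order of RRM2B and RRM1 turned round, at 28.6% and 22.3%, and TYMS had 35.4%. Over oocytes, in CPM, it was 36.2% for RRM2B, 37.0% for TYMS and 83.1% for RRM2. The figures for the genes of few counts, such as 187% for DGUOK over oocytes, include much counting error.

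Among 4423 genes with means of at least 10 CPM in both tables, the 5 whose log2 CPM was most like that of RRM2B over the 11 pools were MYNN, POLR3G, THAP5, LSM14A and LOC100521824. MYNN, a zinc finger protein, had a Pearson r of 0.95 over pools and -0.01 over the 29 oocytes. For POLR3G, a subunit of RNA polymerase III, r was 0.90 and 0.35, for THAP5 0.89 and 0.17, for LSM14A 0.89 and 0.13, and for LOC100521824 0.85 and 0.38. Over pools the upper quartile of r of all ranked genes was 0.14, and over oocytes the median gene had 0.22. Since these 5 were picked as the highest over pools, their lower r over oocytes says little. Of the members, TYMS had r of 0.44 with RRM2B over pools and 0.04 over oocytes, RRM2 0.18 and 0.14, and RRM1 -0.52 and 0.10. These points share library depth and composition, and the values are a description.

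Further lists of pathway genes cover the genes around these enzymes. Genes of nucleotide kinases and phosphatases had 0 of 18 tested members called between the states in pools and 0 of 17 in sums. The smallest p in pools belonged to DCTPP1, which hydrolyses dCTP, with 28.4 ± 8.83 CPM in the deficient pools against 41.0 ± 8.39 CPM in the normal ones (log2 difference -0.39, SE 0.23), and to ADA, adenosine deaminase (-0.87, SE 0.61). In sums they belonged to DCTD, the dCMP deaminase (0.51, SE 0.34), and NT5M, the mitochondrial deoxynucleotidase (-0.43, SE 0.40). Between library types, of 15 that passed the filter on low counts in each table alone, 6 were called higher and 3 lower in pools in the normal state, and 6 and 5 in the deficient state, where over all genes 25.3% were called higher and 26.1% lower in the normal and 27.6% and 29.6% in the deficient state. NT5M stood at 22.1 ± 12.9 CPM in the normal sums (n = 3) and at 0 to 0.654 CPM in the normal pools, and NT5C, a cytosolic deoxynucleotidase, at 3.697 against 0.151 CPM. Both missed the filter in pools and entered the joint fit through the sums, so no call is given. ADA was lower in pools than in sums within the deficient state (-3.64, SE 0.58), and was called lower within the normal state too.

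Genes of nucleotide transport and those known from mtDNA depletion had 0 of 9 called in pools and 0 of 8 in sums. SUCLA2, a subunit of succinyl-CoA ligase whose loss causes mtDNA depletion, had 36.1 ± 19.7 CPM in the deficient pools against 24.8 ± 7.95 CPM in the normal ones (log2 difference 0.69, SE 0.31, unadjusted p = 0.0425, edgeR adjusted p = 0.921). SLC29A1, a nucleoside transporter of the plasma membrane, had -0.55 (SE 0.39). In sums, SLC29A3 had -0.74 (SE 0.56) and SUCLG1, the partner subunit of SUCLA2, -0.51 (SE 0.44). Between library types, of 8 that passed the filter in each table alone, 2 were called higher and 3 lower in pools in the normal state, and 3 and 4 in the deficient state, beside the same shares over all genes (25.3% and 26.1%, and 27.6% and 29.6%). SLC25A33, a mitochondrial pyrimidine nucleotide carrier, was lower in pools by a log2 difference of -1.75 (SE 0.34) and -2.15 (SE 0.34), and SUCLG1 by -1.83 (SE 0.57) and -1.998 (SE 0.57). SLC25A36, a carrier of the same family, was higher in pools than in sums by 1.28 (SE 0.27) within the normal state. SUCLA2 was higher in pools by 2.07 (SE 0.38) within the deficient state. Both genes were called higher in pools in each state. SLC29A3 was called lower in pools than in sums within the normal state only (-1.70, SE 0.67). That call was lost when any of normal pools A3, A4 and B1 or normal sums 2, 3 and 4 was left out. SUCLG1 lost its normal-state call without normal sum 3 (-1.50).

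Genes of de novo nucleotide synthesis and folate metabolism had 0 of 16 called in pools and 0 of 15 in sums. CTPS1, which makes CTP, had 10.1 ± 4.89 CPM in the deficient pools against 22.6 ± 13.9 CPM in the normal ones (log2 difference -0.99, SE 0.46, unadjusted p = 0.0490, edgeR adjusted p = 0.921), and UMPS had 0.42 (SE 0.25). In sums, PRPS1, which makes the ribose phosphate donor, had 0.40 (SE 0.29) and IMPDH1 0.78 (SE 0.70). Between library types, of 14 that passed the filter in each table alone, 4 were called higher and 4 lower in pools in the normal state, and 4 and 5 in the deficient state, again beside 25.3% and 26.1%, and 27.6% and 29.6%, of all genes. PPAT, the first enzyme of purine synthesis, was higher in pools by 2.58 (SE 0.27) and 2.69 (SE 0.25), and GMPS by 2.54 (SE 0.30) in the normal state. The folate enzyme SHMT1 was lower by -3.21 (SE 0.60) and -3.66 (SE 0.63), and MTHFD2 in the deficient state by -2.76 (SE 0.44). GMPS was also called higher in pools in the deficient state, and MTHFD2 lower in the normal state.

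Genes that control the reductase or donate its electrons had 0 of 10 called in pools and 0 of 10 in sums. MDM2, a ubiquitin ligase, was at 28.6, 22.9, 13.6, 17.1 and 11.3 CPM in deficient pools A1, A2, A3, B2 and B4 and at 1.80 to 7.11 CPM in normal pools. MDM2 was named for the smallest p of its list in this same comparison, in which 0% of genes were called. The log2 difference was 2.26 (SE 0.42, edgeR adjusted p = 0.459), and DESeq2 called it (2.27, adjusted p = 0.00102), the lowest of its alternatives, whose adjusted p reached 0.999. In sums MDM2 had 0.42 (SE 1.04). CCNF, which directs the degradation of RRM2, had 0.88 (SE 0.57) in pools. In sums ATM had 0.56 (SE 0.36) and TXN, a thioredoxin, -0.33 (SE 0.33). Between library types, of 9 that passed the filter in each table alone, 4 were called higher and 2 lower in pools in the normal state, and 5 and 2 in the deficient state, with 25.3% and 26.1%, and 27.6% and 29.6%, of all genes. ATM was higher by 3.42 (SE 0.43) and 3.06 (SE 0.37), and E2F1 lower by -3.97 (SE 0.42) and -4.48 (SE 0.45). MDM2 was higher in pools than in sums by 3.08 (SE 0.70) within the deficient state, with no call within the normal state.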

How the data were processed

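RNA of 40 pig oocyte libraries was sequenced as 100 bp paired-end reads. The authors deposited raw counts by gene, whole numbers that had not been normalized, in a table of pools and a table of single oocytes. The submitters' processing notes name TopHat2 2.0.14, Trim Galore, FastQC and edgeR, and build Sscrofa10.2 of the genome. Which program counted reads, and whether by strand, is not given in the sources used here, so reads of overlapping antisense genes and near-identical copies cannot be told apart. A row with no gene name was left out (1.05% to 4.75% of counts in pools, 0.648% to 8.15% in oocytes). Names were matched by symbol, and RRM1 and SAMHD1 through the gene IDs of a RefSeq table of assembly Sscrofa11.1, used for names only.

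The counts were tested with edgeR 4.0.16 (filterByExpr, TMM scaling, quasi-likelihood F test, Benjamini-Hochberg over all genes tested, threshold 0.05) in R 4.3.3. Standard errors are the log2 difference divided by the square root of F, with 95% intervals from its degrees of freedom. The fits took pools (5 against 6), single-oocyte sums (4 against 3), and all 18 together with 4 group means. The code was tested on simulated counts. Deviations from group means of same-numbered pools correlated at -0.10 (A2), 0.13 (A3), 0.48 (B2) and 0.08 (B4). Of these deficient pools, A3, B2 and B4 correlated best with the normal pool of their own number, and A2 did not. Same-numbered sums had 0.14, 0.22 and 0.17 for numbers 2, 3 and 4, each best with its own number. These values do not settle whether samples pair, and nothing in the labels says what the number marks. No 2 libraries of a group agreed within sampling noise (chi-square per degree of freedom at least 35.0 in pools and 4.09 in oocytes).

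Alternatives were DESeq2 1.42.0, voom of limma 3.58.1, RLE scaling, no filter on low counts, each oocyte as a sample, sums by title number and date, oocytes of 1 date, the totals without LOC102158401 and RN18S, the title letter as a covariate, a replicate block, and leaving out each pool or sum. The members and lists were chosen with earlier results of these data known. By the rule for named genes, every member is named, with up to 4 called genes of largest difference of each further list, or the 2 of smallest p where none was called, and the 5 genes most like RRM2B over pools (log2 CPM, prior count 2). Some genes that the rule picks are not reported here. MDM2 in sums was added after its values were seen. Floors cover counting error only, and the intervals rest on the spread between samples.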

Additional observations from a re-analysis of the deposited data

Results flagged for a closer look

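Each member's values in deficient pools, normal pools and deficient sums were searched for a sample that stood far from its group. In 27 such groups 2 values were found, and chance gives about 1 in 20 groups searched. RRM1 in normal pool A3 was at 32.3 CPM, with the next pool at 75.3 CPM, a gap of 0.652 of the whole range where 0.625 is the limit for 6 samples. TYMS in normal pool A4 was at 1343 CPM, with the next pool at 796 CPM, a gap of 0.879 of the range. With TMM scaling of the same counts, the gaps were 0.603 for RRM1 and 0.470 for TYMS, both under the limit. The TMM factor was 0.776 in normal A3 and 1.09 in normal A4, and normal A3 had 15057 genes with a count. The part of library composition in these values was not tested.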

How the results depend on the processing

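Of 2012 alternative values, 1939 kept their direction and their side of the threshold, or, for counts, stayed within 1.5 times. No member was called between the states, or for the difference of that effect between library types, under any alternative. Between library types 5 or 6 members passed the threshold, DGUOK among the 6 and not given as a call. Calls between library types were common over all genes too. They ran from 7515 (of 10628, each oocyte as a sample) to 10301 (of 27164, no filter) in the normal state. In the deficient state they ran from 7677 to 11288 under the same alternatives. Counts of called genes, 0 in the first fit, became 28 (DESeq2) in pools; 2 (DESeq2), 1 (each oocyte as a sample), 4 (no filter), 2 (oocytes of 17 September) and 2 (replicate block) in sums; and 1 (DESeq2), 3 (each oocyte as a sample) and 6 (no filter) for the difference of the effects. Whether pools pair by title number was not settled: deficient A2 correlated best with normal A3, and the other 3 (A3, B2 and B4) with their own number. The replicate block called 0 genes in pools, and DUT became 0.14, RRM1 0.070 and RRM2 -0.053; without the block in the same 8 pools, an alternative chosen after seeing the data, they were 0.071, 0.067 and -0.052. In sums the block changed no call of a member. Between pools, limma-voom gave -0.17 for DGUOK and -0.045 for RRM2, and the title letter as a covariate 0.030 for RRM1 and -0.0028 for RRM2. Between sums, DUT was -0.20 in oocytes of 22 September, RRM1 -0.011 by limma-voom and -0.20 in oocytes of 17 September, PRPS1 -0.071 in those of 17 September and SUCLG1 0.032 in those of 22 September. DUT between library types in the deficient state was -0.42 by DESeq2, -0.42 by RLE scaling and -0.019 with each oocyte as a sample. Leaving out 1 sample gave ranges that crossed 0 between pools for DCK (-0.077 to 0.30), DGUOK (-0.38 to 0.54), DUT (-0.19 to 0.014), RRM1 (-0.17 to 0.10), RRM2 (-0.22 to 0.21), SAMHD1 (-0.18 to 0.91) and TK2 (-0.10 to 0.88). The same held between sums for RRM1 (-0.18 to 0.21), MDM2 (-0.12 to 1.77) and NT5M (-0.68 to 0.11), between library types for DUT in the deficient state (-0.023 to 0.48), and for the difference of the effects for RRM2B (-0.024 to 0.29). The RRM2B difference stayed positive, 0.09 to 0.43 in pools and 0.02 to 0.30 in sums. The cause of these changes was not tested. Depth limits TK2, DGUOK and SAMHD1, which had 58, 25 and 40 counts over 29 oocytes.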
